A study of Homo sapiens with 6 samples.

Results

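Junction genes of HT29 cells, a human colorectal cancer line, were compared between cultures given YM155 and cultures given its DMSO control. YM155 is a compound developed to lower the expression of survivin, an inhibitor of cell death. The 34 genes were chosen by symbol from the 26255 rows of each table, as named parts of desmosomes, adherens junctions, tight junctions, apical polarity complexes and gap junctions. There were 3 libraries of cells that had YM155 for 24 h and 3 of cells that had DMSO. The sources used here do not give the dose of YM155, the time in DMSO or whether the triplicates were separate cultures. The p-values therefore describe the spread between these libraries alone, which could be technical. The titles of the treated samples spell the compound YM115, and their treatment field spells it YM155. Levels are FPKM (fragments per kilobase of transcript, relative to sequencing depth), measured on RNA from whole cultures, so fewer or more cells of a kind and less or more RNA per cell cannot be told apart.

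Epithelial cells are held together by junctions that have distinct jobs. Desmosomes are spot welds in which the cadherins desmoglein and desmocollin bind, through plakoglobin, plakophilins and desmoplakin, to the keratin filaments. Adherens junctions join E-cadherin through catenins to actin. Tight junctions seal the space between cells: claudins form the strands and their pores, occludin and its relatives lie within the strands, and ZO proteins anchor them inside the cell. In the gut these belts keep the lumen apart from the tissue, and polarity complexes of the PAR and Crumbs families set where along the lateral membrane they lie. Gap junctions, made of connexins, pass small molecules between neighbours.

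No library stood apart from its group. Tables listed 16018 to 17174 genes above 0, and Pearson correlations of log2 values over tested genes, which are no independent replicates, lay between 0.992 and 0.994 inside a group and between 0.860 and 0.878 across groups. The files hold no read totals. From the spacing of values under 0.1 FPKM, 1 read was worth 1.52 to 1.78 times as much FPKM in the YM155 libraries as in DMSO replicate 1, against 0.997 and 1.11 in the other DMSO libraries, so scarce transcripts were measured less precisely with YM155. Colon epithelial markers were present (EPCAM 276 FPKM and KRT8 1962 FPKM on average in DMSO), but CDX1 stayed at or under 0.245 FPKM in every library. Of 10 such markers 9 were tested, of which 6 rose and 2 fell, where 43.6% and 41.0% of all tested genes did so. Those that fell were VIL1, from a mean of 38.6 to 22.3 FPKM, and CDX2, from 3.20 to 0.839 FPKM. CDH17 rose but stayed at or under 0.794 FPKM in the DMSO libraries. Testing required 1 FPKM in at least 3 libraries. CDX2 reached this in the DMSO libraries alone and CDH17 in the YM155 libraries alone, so both had to differ to be tested. None of 6 fibroblast markers exceeded 0.328 FPKM and none of 6 endothelial markers exceeded 0.184 FPKM in any library. The 5 leukocyte markers summed to 4.95 to 6.65 FPKM in DMSO libraries and 79.4 to 88.5 FPKM in YM155 libraries, most of it from CD68, a lysosomal protein gene that other cells also express, while PTPRC stayed at or under 0.0172 FPKM. The part of this rise in the junction values was not tested.

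Most of the junction genes were higher with YM155. Of the 34 members, 32 reached 1 FPKM in at least 3 of the 6 libraries and were tested with limma, and of these 29 rose, 2 fell and 1 did not pass at an adjusted p under 0.05. Over all 12035 tested genes 43.6% rose and 41.0% fell. The median log2 fold change of the tested members was 0.89, beside 0.02 over all tested genes. In 30 of the 34 members, the untested PKP1 among them, every YM155 library lay above every DMSO library. In 2, EVPL and CLDN2, every YM155 library lay below. Of all tested genes 44.4% and 41.5% were separated in these directions. The summed level of the members lay between 1335 and 1347 FPKM in the DMSO libraries and between 2736 and 2848 FPKM in the YM155 libraries. The total over all rows was also higher, at 538478 to 563296 FPKM in DMSO and 678699 to 696067 FPKM in YM155 libraries.

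The change of a gene also moved with its abundance and with the scaling between libraries. Among the 8553 tested genes with a mean of at least 5 FPKM, 51.6% rose, 34.1% fell and 19.5% reached a log2 fold change of at least 1, with a median of 0.19. Of the 29 members at that level, 28 rose, 1 fell and 15 reached a log2 fold change of at least 1, with a median of 1.09. Upper-quartile, common-sum and quantile scaling shifted the median change of all tested genes on the log2 scale by -0.22, -0.28 and -0.11. Under these the counts of members higher and lower were 25 and 3, 24 and 3, and 25 and 4, and the share of all calls that were higher went from 51.5% to 40.6%, 37.4% and 45.8%. The groups of members were not alike: the median log2 fold change was 1.62 over 9 tested desmosome genes, 1.51 over 3 polarity genes, 0.96 over 8 tight junction genes other than claudins, 0.70 over 3 adherens junction genes and 0.46 over 8 claudins. Differences between these medians were not tested. The order of neighbours depended on scaling and, for desmosome and polarity genes, also on the filter. With quantile scaling the polarity median (1.42) lay above that of the desmosome (1.34) and the claudin median (0.38) above that of the adherens junction (0.26).

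**Figure D1:**
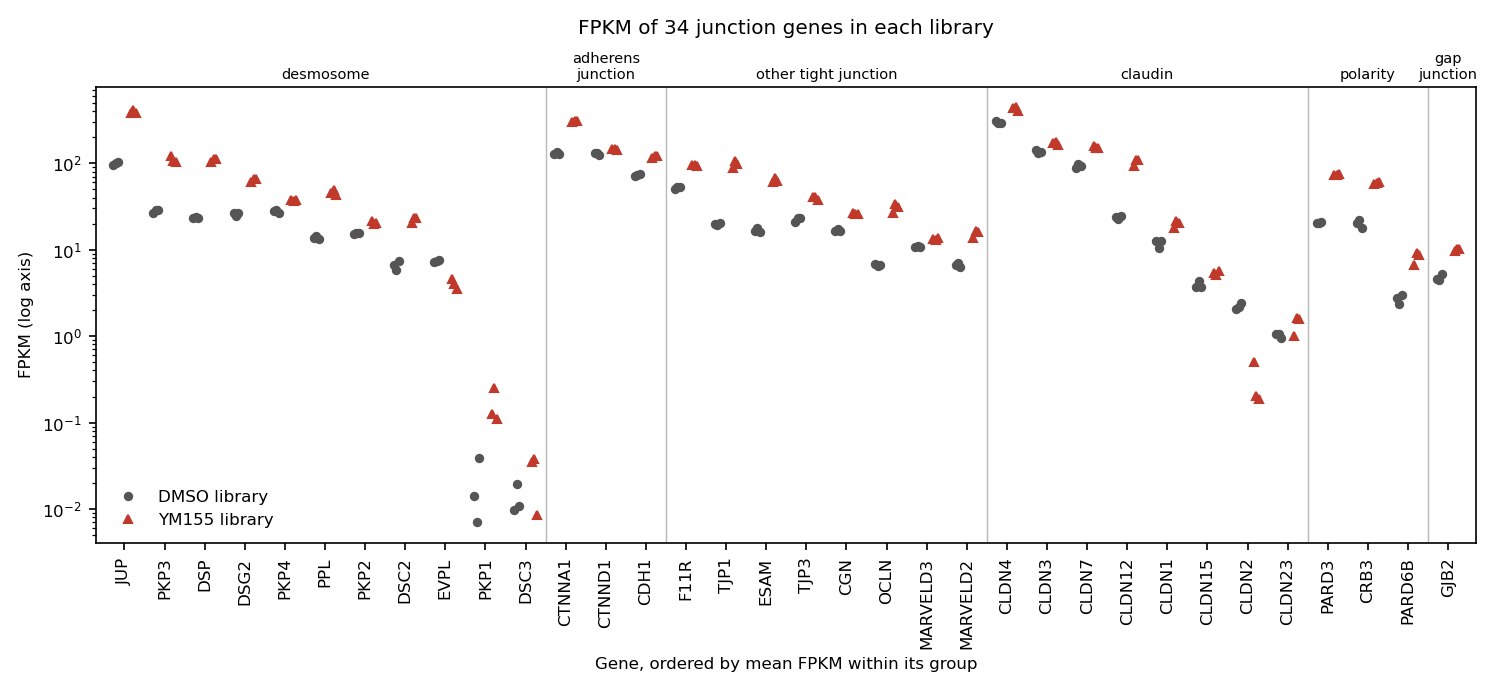
FPKM of each of the 34 junction genes (vertical axis, log scale) in the 3 DMSO libraries (grey circles) and the 3 YM155 libraries (red triangles), by group. The triangles lie above the circles for 30 genes and below them for EVPL and CLDN2, and PKP1 and DSC3 lie under 1 FPKM throughout.

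**Figure D2:**
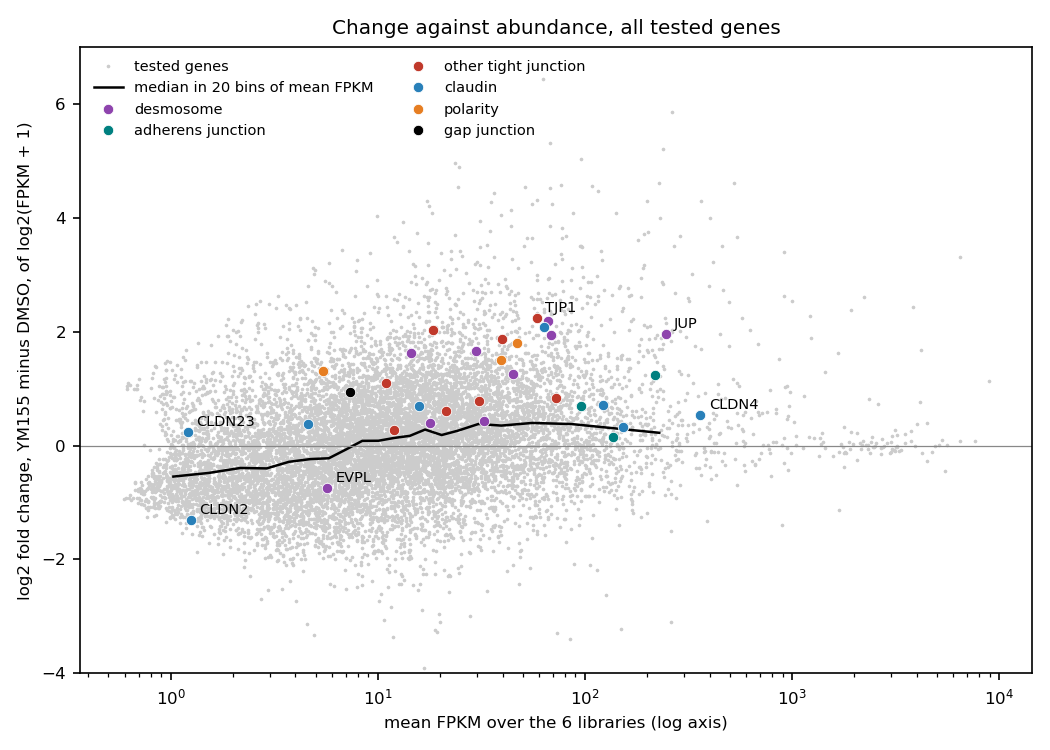
Log2 fold change on the log2(FPKM + 1) scale (vertical axis) against the mean FPKM over the 6 libraries (horizontal axis, log scale) for 12035 tested genes (grey), with the median in bins of mean FPKM (black line) and the 32 tested members in colour. CLDN2 and EVPL lie below 0, and 15 members lie at 1 or above.

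Windows of 300 bases around the transcript starts of the members, 250 before to 50 after, were taken from RefSeq (GRCh38.p14). This is another build than the one behind the FPKM values. At least 1 window was kept for 22 of the 34 members and none for the other 12, which may have windows in RefSeq. The kept windows were searched on both strands for CACCTG. Repressors of the Snail and ZEB families are known to bind this E-box in the promoters of junction genes. CACCTG was found for 11 of these 22 members, beside 24.1% of all 27305 genes in the table, and in 34.3% of the members' 35 kept windows, beside 20.6% of all windows. The windows of members and of all genes may not have been selected alike, so these shares are not strictly comparable. The 11 with a match all rose on the deposited scale (CLDN3 turned with quantile scaling and cyclic loess), with log2 fold changes of 0.33 to 2.24. Of the 11 without one, 8 rose, 1 fell and 2 were not tested, with log2 fold changes of -1.31 to 2.09. The 1 that fell, CLDN2, passed the filter through the DMSO libraries alone. Over all tested genes 43.6% rose and 41.0% fell. The difference between members with and without a match was not tested. The windows below show 3 members with a match, of which 2 rose strongly and 1 little, and then 2 members without a match, of which 1 rose strongly and 1 fell. They were picked after their values were seen. Capitals mark CACCTG or its reverse complement, each sequence runs 5′ to 3′ along the gene, and positions are counted from the transcript start.
DSP, chr6:7541421-7541720, plus strand, 2 matches, the first at -178: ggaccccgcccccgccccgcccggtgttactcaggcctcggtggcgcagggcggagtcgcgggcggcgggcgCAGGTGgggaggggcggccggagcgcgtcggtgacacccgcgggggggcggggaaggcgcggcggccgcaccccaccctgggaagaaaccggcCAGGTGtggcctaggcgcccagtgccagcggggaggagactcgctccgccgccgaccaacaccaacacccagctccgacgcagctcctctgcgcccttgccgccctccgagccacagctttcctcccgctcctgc
CRB3, chr19:6464021-6464320, plus strand, 5 matches, the first at -228: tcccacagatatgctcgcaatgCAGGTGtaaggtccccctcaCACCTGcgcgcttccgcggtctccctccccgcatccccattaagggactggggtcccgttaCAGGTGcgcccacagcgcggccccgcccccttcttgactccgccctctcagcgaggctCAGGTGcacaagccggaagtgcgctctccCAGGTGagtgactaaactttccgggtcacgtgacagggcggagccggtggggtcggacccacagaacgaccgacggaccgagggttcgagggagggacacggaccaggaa
CLDN3, chr7:73770221-73770520, minus strand, 1 match at 37: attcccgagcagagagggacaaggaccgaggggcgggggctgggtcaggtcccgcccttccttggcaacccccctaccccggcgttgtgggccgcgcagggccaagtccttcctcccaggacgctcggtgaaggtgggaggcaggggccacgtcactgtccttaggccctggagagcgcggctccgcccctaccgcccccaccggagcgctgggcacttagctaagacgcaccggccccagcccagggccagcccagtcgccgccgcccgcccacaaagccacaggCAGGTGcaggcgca
CLDN12, chr7:90403211-90403510, plus strand, 0 matches: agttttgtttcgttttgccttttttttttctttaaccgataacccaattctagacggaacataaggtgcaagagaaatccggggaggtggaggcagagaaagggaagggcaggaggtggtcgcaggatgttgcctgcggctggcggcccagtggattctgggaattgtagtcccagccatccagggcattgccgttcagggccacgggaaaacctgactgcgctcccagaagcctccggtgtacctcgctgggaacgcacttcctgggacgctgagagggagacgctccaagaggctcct
CLDN2, chrX:106899914-106900213, plus strand, 0 matches in this and in its other window: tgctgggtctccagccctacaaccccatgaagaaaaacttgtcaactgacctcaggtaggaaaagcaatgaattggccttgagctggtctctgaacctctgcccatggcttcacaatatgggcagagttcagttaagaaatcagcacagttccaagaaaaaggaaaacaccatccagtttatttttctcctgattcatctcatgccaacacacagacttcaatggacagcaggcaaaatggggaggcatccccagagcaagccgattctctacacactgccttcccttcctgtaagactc
A match describes these letters and not binding, and which transcript start the HT29 reads came from was not analysed here.

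The desmosome was the group with the highest median change of tested genes on the deposited scale. Without the filter, which adds PKP1 and DSC3, its median was 1.26, below the 1.51 of the polarity genes. The rise of the desmosome took in the plaque, the cadherins and 1 of the 2 plakin partners. DSP encodes desmoplakin, which ties the plaque to keratin. It measured 23.4, 23.6 and 23.1 FPKM under DMSO against 104, 113 and 111 FPKM under YM155, a 4.68-fold rise (log2 fold change 2.18, SE 0.04, adjusted p = 7.1e-10). JUP encodes plakoglobin, the arm-repeat protein shared by desmosomes and adherens junctions and the most abundant desmosome transcript here. It measured 96.2, 102 and 102 FPKM under DMSO against 383, 410.4 and 377 FPKM under YM155, 3.90-fold (1.95 on the log2 scale, adjusted p = 1.7e-09). For both genes the DMSO libraries lay close together, and every YM155 library was well clear of them.

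The plakophilins, which bridge desmoplakin and the cadherin tails, changed unequally. PKP3, a plakophilin of simple and stratified epithelia alike, measured 26.3, 28.8 and 28.5 FPKM under DMSO against 121, 106 and 102 FPKM under YM155 (3.93-fold, adjusted p = 1.5e-08). PKP2, the one also found in heart muscle, measured 15.2, 15.4 and 15.5 FPKM and 21.2, 19.8 and 20.3 FPKM (1.33-fold, adjusted p = 5.4e-05). PKP4, a relative that is also found at adherens junctions, rose 1.35-fold, from 27.6 ± 0.905 to 37.3 ± 0.684 FPKM (SD, n = 3). The groups did not overlap for any of these 3 genes, but the call of PKP2 ended with a common sum (log2 fold change 0.09, adjusted p = 0.14) and that of PKP4 with quantile scaling (0.06, adjusted p = 0.25). PKP3 went from 39.3% ± 1.24 to 65.3% ± 1.64 of the summed plakophilin FPKM, a share that 1 factor per library does not alter, while PKP2 went from 21.7% to 12.2% and PKP4 from 38.97% to 22.3%. PKP1, the plakophilin of stratified epithelium, was scarce, at 0.0141, 0.00704 and 0.0394 FPKM and then 0.126, 0.248 and 0.111 FPKM, and was not tested. In a fit without the filter, over 19085 genes, its log2 fold change was 0.19 (adjusted p = 0.013).

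Both desmosomal cadherins of simple epithelium rose. DSG2, a desmoglein, measured 26.8, 24.8 and 26.8 FPKM under DMSO against 61.1, 66.2 and 64.7 FPKM under YM155 (2.45-fold, adjusted p = 3.5e-08). DSC2, a desmocollin, measured 6.57, 5.83 and 7.30 FPKM and 20.2, 23.2 and 23.3 FPKM (3.38-fold, adjusted p = 1.8e-07). The ratio of DSC2 to DSG2 was 0.251 ± 0.0193 in DMSO libraries and 0.347 ± 0.0152 in YM155 libraries, without overlap, so DSG2 remained the more abundant of the pair. DSC3, a desmocollin of stratified epithelium, was at or under 0.0374 FPKM in every library and was not tested. DSG2 and DSC2, like DSP, each had a window with a CACCTG match.

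The plakins PPL and EVPL, periplakin and envoplakin, which are known to pair with each other at desmosomes and in the cornified envelope, went opposite ways. PPL measured 13.5, 14.3 and 13.4 FPKM under DMSO against 45.7, 49.3 and 42.3 FPKM under YM155 (3.33-fold, adjusted p = 2.2e-08). EVPL measured 7.16, 7.47 and 7.48 FPKM and 4.58, 3.997 and 3.505 FPKM, 1.83-fold lower (log2 fold change -0.74, adjusted p = 3.0e-05). It was the only tested desmosome gene that fell, and its change stayed negative under the 5 other scalings run. The ratio of PPL to EVPL was 1.87 ± 0.0670 in DMSO libraries and 11.5 ± 1.30 in YM155 libraries.

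Among the 3 adherens junction members the change was smaller and differed between the catenins. The order of the member groups did not carry over to the other genes of these families. There the median log2 fold change was 0.95 over 11 tested adherens junction, 0.68 over 10 tight junction and 0.37 over 9 polarity genes. CDH1, encoding E-cadherin, measured 70.2, 72.9 and 74.9 FPKM under DMSO against 116, 119.5 and 121 FPKM under YM155 (1.63-fold, adjusted p = 3.8e-07). CTNNA1, encoding alpha-catenin, the link to actin, measured 128, 133 and 126 FPKM and 299, 305 and 311 FPKM (2.36-fold, adjusted p = 9.2e-09). In both, the libraries of a group lay close together, and CTNNA1 gained on its cadherin: the ratio of CTNNA1 to CDH1 went from 1.78 ± 0.0808 to 2.57 ± 0.0130. CTNND1 encodes p120-catenin, which holds cadherin at the membrane. It measured 133, 131 and 124 FPKM under DMSO against 144, 144 and 144 FPKM under YM155 (1.11-fold, log2 fold change 0.15, adjusted p = 0.0061). Its direction turned under upper-quartile, common-sum and quantile scaling, to -0.10, -0.17 and -0.29 on the log2 scale, or 0.10, 0.09 and -0.21 beyond the median change of all tested genes. In each of these CTNND1 was called lower (adjusted p = 0.049, 0.0034 and 7.9e-05), as it was after cyclic loess. The ratio of CTNND1 to CDH1 was lower with YM155, at 1.21 ± 0.0246 against 1.78 ± 0.114.

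Among tight junction genes other than claudins all 8 rose on the deposited scale, though the call of MARVELD3 depended on scaling. Of all tested genes with a mean of at least 5 FPKM, which these 8 reached, 51.6% rose. The largest changes were those of a scaffold, of occludin and of an adhesion molecule. TJP1 encodes ZO-1, the scaffold that binds claudin tails. It measured 19.9, 19.03 and 20.3 FPKM under DMSO against 87.8, 105 and 97.97 FPKM under YM155, 4.92-fold and the largest rise of any tested member (log2 fold change 2.24, SE 0.07, adjusted p = 5.6e-09). TJP3, which encodes the related ZO-3, measured 20.7, 23.1 and 23.5 FPKM and 40.5, 40.7 and 37.2 FPKM (1.76-fold, adjusted p = 2.3e-06). The ratio of TJP1 to TJP3 was 0.882 ± 0.0704 in DMSO libraries and 2.46 ± 0.255 in YM155 libraries, so TJP1 went from slightly below TJP3 to well above it. CGN, encoding cingulin, which binds ZO-1 and myosin at the plaque, rose 1.56-fold, from 16.6 ± 0.497 to 25.9 ± 0.459 FPKM (SD, n = 3).

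The 3 MARVEL proteins of the strands also moved apart. OCLN, occludin, measured 6.85, 6.49 and 6.72 FPKM under DMSO against 26.6, 33.4 and 31.2 FPKM under YM155 (4.54-fold, adjusted p = 3.1e-08). MARVELD2, encoding tricellulin of tricellular contacts, measured 6.69, 6.92 and 6.36 FPKM and 13.8, 16.3 and 15.9 FPKM (2.305-fold, adjusted p = 8.2e-07). MARVELD3 measured 10.7, 10.9 and 10.6 FPKM and 13.1, 12.8 and 13.8 FPKM (1.23-fold, adjusted p = 9.5e-04). The groups were separated for each gene, but the call of MARVELD3 ended with upper-quartile and quantile scaling (log2 fold changes of 0.05 and 0.10) and its direction turned with a common sum (-0.02, or 0.24 beyond the median change of all tested genes). OCLN went from 27.8% ± 0.940 to 51.5% ± 1.89 of the summed FPKM of the 3 genes and MARVELD3 from 44.6% ± 0.364 to 22.5% ± 2.07, so that the most abundant transcript with DMSO was the scarcest with YM155. MARVELD2 held 27.7% and 26.01%.

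Of the immunoglobulin-type adhesion molecules, F11R, encoding JAM-A, measured 50.2, 52.5 and 53.5 FPKM under DMSO against 93.9, 94.6 and 92.2 FPKM under YM155 (1.80-fold, adjusted p = 1.3e-07). In GENCODE release 29, 38.32% of its exonic bases are shared with another gene on the same strand. How far this affects its level is not known, as the annotation behind the FPKM values is not given. ESAM, a relative named for endothelial cells, measured 16.4, 17.7 and 15.8 FPKM and 60.7, 66.7 and 62.5 FPKM (3.81-fold, adjusted p = 6.9e-09). PECAM1, VWF, CDH5, KDR, TIE1 and CLDN5 together summed to at most 0.196 FPKM in a DMSO library and 0.250 FPKM in a YM155 library, so ESAM was high where the defining endothelial transcripts were near 0.

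**Figure D3:**
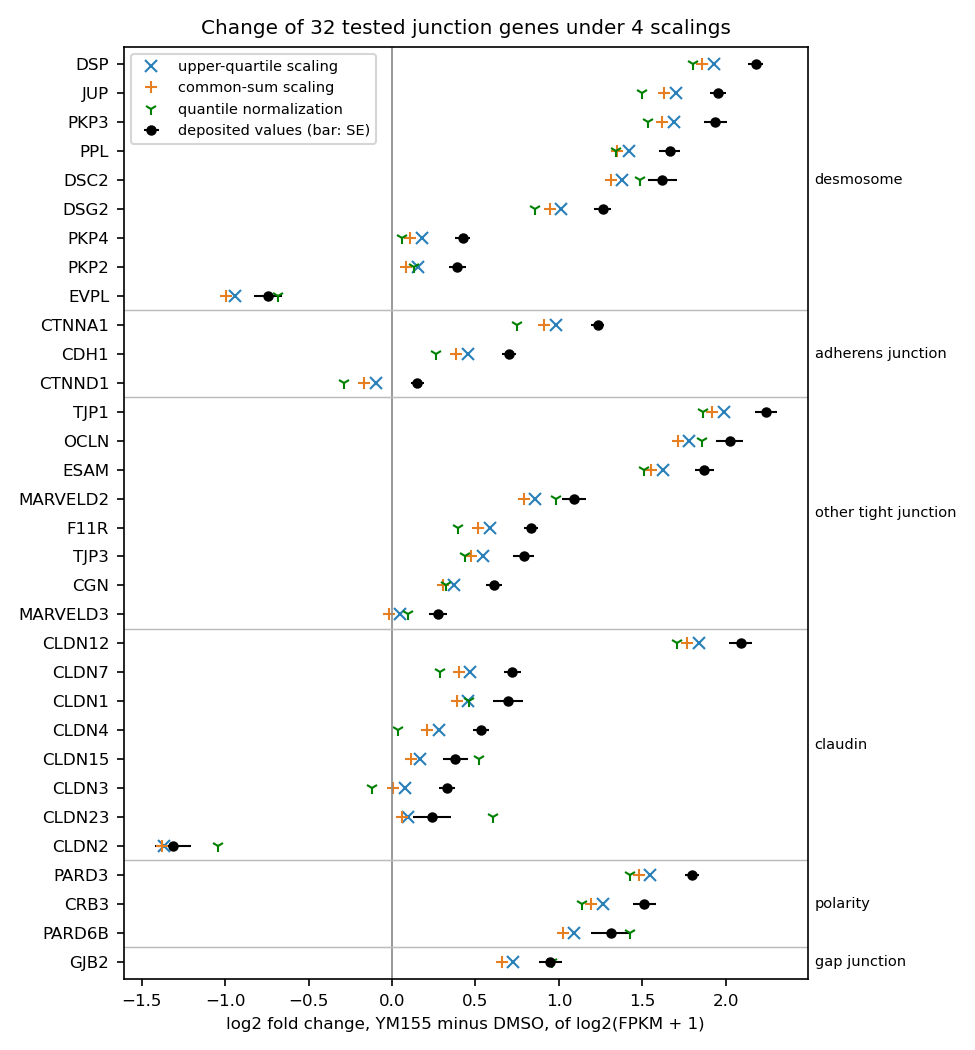
Log2 fold change of the 32 tested members (YM155 minus DMSO, horizontal axis, on the log2(FPKM + 1) scale) with the deposited values (black, bar: SE) and under other scalings (coloured marks), by group. CTNND1, CLDN3 and MARVELD3 cross 0 under at least 1 scaling, whereas DSP, JUP, TJP1, OCLN and CLDN12 stay above 1 and EVPL and CLDN2 stay below 0.

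The claudins, which decide what a tight junction lets through, had the lowest median change of the groups on the deposited scale. Of the 8, 6 rose, CLDN2 fell and CLDN23 did not pass, where 43.6% of all tested genes rose and 41.0% fell. The bulk of the claudin FPKM lay in CLDN4, CLDN3 and CLDN7. CLDN4, a sealing claudin and the most abundant member of all, measured 308, 289 and 288 FPKM under DMSO against 436, 442 and 403 FPKM under YM155 (1.45-fold, adjusted p = 7.5e-06), a call that ended with quantile scaling (log2 fold change 0.03, adjusted p = 0.55). CLDN3, whose window is printed above, measured 140.1, 131 and 134 FPKM and 172, 176 and 161 FPKM (1.26-fold, log2 fold change 0.33). That call ended with upper-quartile and common-sum scaling (0.08 and 0.0075). With quantile scaling the direction turned and CLDN3 was called lower (-0.12, adjusted p = 0.046, or -0.04 beyond the median change of all tested genes). CLDN7, of which 13.03% of exonic bases are shared with another gene on the same strand, measured 86.8, 97.2 and 92.6 FPKM and 158, 151 and 148 FPKM (1.65-fold, adjusted p = 1.1e-06). CLDN1, a claudin that the skin barrier needs, rose 1.67-fold, from 11.9 ± 1.28 to 19.8 ± 1.67 FPKM (SD, n = 3). CLDN15, a claudin of cation pores in the gut, rose 1.38-fold to 5.34 ± 0.301 FPKM, a call lost under upper-quartile and common-sum scaling (log2 fold changes of 0.17 and 0.11).

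A pair of claudins left this pattern in opposite directions. CLDN12, a claudin linked to calcium passage in the gut, measured 23.5, 22.6 and 24.6 FPKM under DMSO against 93.4, 108 and 109.7 FPKM under YM155 (4.40-fold, log2 fold change 2.09, SE 0.07, adjusted p = 8.8e-09). CLDN2, which forms a pore for cations and water, measured 2.04, 2.18 and 2.42 FPKM and 0.505, 0.205 and 0.189 FPKM, 7.38-fold lower (-1.31 on the log2 scale, SE 0.11, adjusted p = 3.3e-06). Its YM155 libraries spread more than those of any other tested member (coefficient of variation 59.4%), and without YM155 replicate 1 the fold was 11.2. CLDN2 was the only tested member that passed the filter through 1 group alone, so it had to differ to be tested. Part of its exons, 10% of their bases, lies opposite another gene, and the sources used here do not say whether counting used strand. CLDN23, a claudin of the gut epithelium, measured 1.05, 1.06 and 0.957 FPKM and 1.008, 1.63 and 1.58 FPKM. It did not pass (log2 fold change 0.24, adjusted p = 0.073), and without YM155 replicate 1, which lay among the DMSO values, it was called (0.36, adjusted p = 0.0033). With all 6 libraries it was also called after quantile scaling (0.61, adjusted p = 8.9e-04) and cyclic loess (0.71, adjusted p = 3.4e-04).

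The makeup of the claudin pool shifted towards CLDN12. Its share of the summed FPKM of the 8 claudins went from 4.18% ± 0.196 to 11.8% ± 1.18, while CLDN3 went from 23.9% ± 0.377 to 19.3% ± 0.298 and CLDN4 from 52.2% ± 0.939 to 48.5% ± 0.981. CLDN7 held 16.4% and 17.3%, and CLDN2 went from 0.392% to 0.0340%. The claudins as a whole summed to 564 ± 11.3 FPKM in DMSO libraries and 879.6 ± 27.7 FPKM in YM155 libraries. The total over all rows, given above, was also higher with YM155.

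The 3 polarity genes all rose by at least 1 on the log2 scale, as did 19.5% of tested genes with a mean of at least 5 FPKM. Of 9 other polarity genes tested 2 did so, with a median log2 fold change of 0.37. PARD3 encodes the scaffold of the PAR complex at cell contacts. It measured 20.2, 20.4 and 20.9 FPKM under DMSO against 73.5, 72.5 and 74.9 FPKM under YM155 (3.59-fold, log2 fold change 1.80, adjusted p = 1.3e-09). CRB3, the epithelial Crumbs protein of the apical membrane, whose window with 5 matches is printed above, measured 20.3, 21.7 and 17.9 FPKM and 57.1, 58.7 and 60.00 FPKM (2.93-fold, adjusted p = 6.3e-08). PARD6B, an adaptor of atypical protein kinase C, measured 2.77, 2.36 and 2.97 FPKM and 6.68, 9.20 and 8.78 FPKM (3.05-fold, adjusted p = 5.0e-06). Its YM155 replicate 1 lay below the other 2, yet clear of the DMSO libraries. Its paralog PARD6A, outside the member list, went from 5.66 ± 0.0765 to 3.74 ± 0.413 FPKM, so the ratio of PARD6B to PARD6A was 0.477 ± 0.0557 in DMSO libraries and 2.23 ± 0.559 in YM155 libraries.

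The single gap junction member, GJB2, encoding a connexin of many epithelia, measured 4.53, 4.41 and 5.22 FPKM under DMSO against 9.72, 10.2 and 10.1 FPKM under YM155 (2.12-fold, log2 fold change 0.95, adjusted p = 1.6e-06). GJB1, a connexin of liver and gut epithelium and no member, went the other way, from 40.2, 43.6 and 44.3 FPKM to 15.7, 12.2 and 11.5 FPKM (3.25-fold lower, adjusted p = 4.4e-07). The ratio of GJB2 to GJB1 was 0.110 ± 0.00856 in DMSO libraries and 0.778 ± 0.138 in YM155 libraries, without overlap, and GJB2 stayed the lower of the pair in every library.

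**Figure D4:**
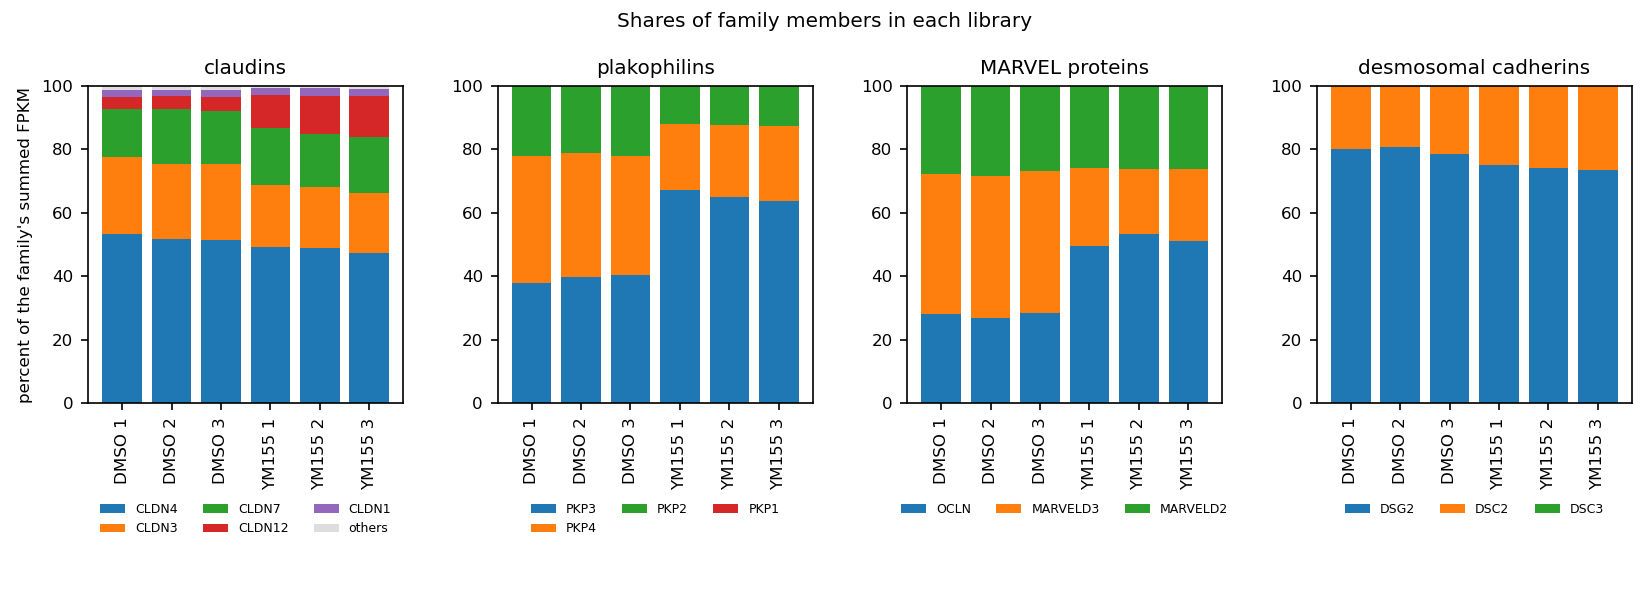
Share of each gene in the summed FPKM of its family (vertical axis, percent) in each of the 6 libraries. The 3 libraries of a group look alike, and PKP3, OCLN, CLDN12 and DSC2 take a larger share with YM155.

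Ratios between members within a library do not depend on a factor applied to the whole library. The ratio of JUP to CTNNB1 compares plakoglobin with beta-catenin, its close relative at adherens junctions. It was 1.60, 1.67 and 1.81 in the DMSO libraries against 5.52, 5.63 and 5.11 in the YM155 libraries. CTNNB1 itself was at 59.1 ± 2.34 FPKM and 72.1 ± 2.31 FPKM, and its direction depended on scaling (log2 fold changes of 0.28 as deposited, 0.03 with upper-quartile, -0.04 with common-sum and -0.16 with quantile scaling). DSP went from 0.322 ± 0.0122 to 0.921 ± 0.0225 of the CDH1 level and DSG2 from 0.359 ± 0.0207 to 0.539 ± 0.0141. These 2 desmosomal transcripts were thus higher relative to E-cadherin in every YM155 library than in any DMSO library. All 18 ratios computed were separated between the groups, and no share over other gene pairs was computed. That 17 of them were higher with YM155 reflects which gene was made the numerator and carries no result. The 18 pairs were chosen after the values were seen and were not tested. With 3 libraries against 3 an exact two-sided permutation p could not fall under 0.1.

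**Figure D5:**
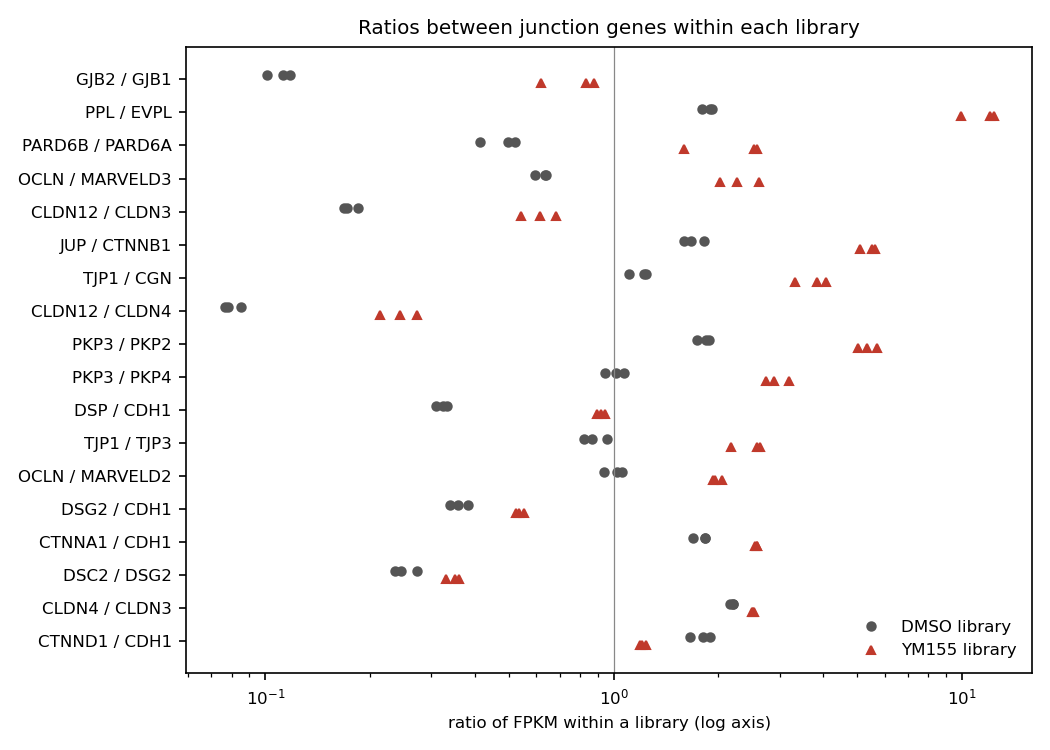
Ratio of FPKM of 2 junction genes within each library (log scale) for 18 pairs, in DMSO (grey circles) and YM155 (red triangles) libraries. In each pair the groups do not overlap, and CTNND1 to CDH1 is the pair whose ratio is lower with YM155.

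The rest of the junction families, 82 genes listed by family and not by how they moved, showed both rises and falls. Of these 37 were tested, of which 28 rose, 7 fell and 2 did not pass, with a median log2 fold change of 0.69, beside the 43.6% higher and 41.0% lower over all tested genes. With upper-quartile and with common-sum scaling the list counted 21 higher and 9 lower. CDH17, ILDR1 and GJB6 passed the filter through 1 group alone. In the adherens junction families 9 of 11 tested genes rose, including VCL, vinculin (3.84-fold), MLLT4, afadin (3.07-fold), and the nectin gene PVRL4 (4.01-fold), and CDH3, P-cadherin, fell 1.39-fold. ARVCF, a p120-catenin relative, did not pass, with 23.7 ± 1.39 FPKM in DMSO and 21.3 ± 3.12 FPKM in YM155 libraries, but was called lower under upper-quartile, common-sum and quantile scaling (log2 fold changes of -0.39, -0.46 and -0.46) and after cyclic loess (-0.45). Among other tight junction genes 8 of 10 rose, with YBX3 2.23-fold and LSR of tricellular contacts 2.03-fold higher, while MAGI1 fell 1.72-fold and ILDR1 3.34-fold. Among other polarity genes 6 of 9 rose, among them PRKCI, an atypical protein kinase C (4.04-fold), INADL, the PATJ scaffold (3.42-fold), and LLGL2 (1.82-fold). PARD6A fell 1.51-fold and LLGL1 1.29-fold, and DLG1 did not pass (21.1 ± 1.44 and 20.3 ± 0.955 FPKM). DLG1 too was called lower under upper-quartile, common-sum and quantile scaling (-0.29, -0.35 and -0.34 on the log2 scale) and after cyclic loess (-0.33). PERP, a membrane protein that desmosomes need, rose 2.70-fold and was the 1 tested of 5 other desmosome genes. Of the 6 other gap junction genes tested 4 rose, GJB6 (4.56-fold) and PANX1 (1.28-fold) among them, and 2 fell, GJB1 among them. The call of PANX1 was lost under upper-quartile, common-sum and quantile scaling (log2 fold changes of 0.10, 0.03 and 0.13). None of the other 15 claudins was tested, the highest being CLDN9 at up to 0.997 FPKM.

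Transcription and splicing factors known to act on junction genes did not all move in 1 direction. Of 20 listed regulators 14 were tested, of which 10 rose and 4 fell, where 43.6% and 41.0% of all tested genes did so. SNAI1, a repressor known to bind the E-box marked in the windows above, rose from 2.203 ± 0.256 to 5.71 ± 0.472 FPKM (SD, n = 3), while SNAI2, ZEB2, TWIST1 and TWIST2 stayed at or under 0.0293 FPKM in every library and ZEB1 at or under 0.379 FPKM. The epithelial factors ELF3 (4.36-fold), KLF4 (5.18-fold), KLF5 (3.26-fold), OVOL1 (3.80-fold), GRHL3 (3.79-fold) and GRHL1 (1.54-fold) rose, as did the splicing factors ESRP1 (1.55-fold) and ESRP2 (1.37-fold). The call of ESRP2 ended with common-sum and quantile scaling (log2 fold changes of 0.12 and 0.09). GRHL2 fell 1.29-fold, from 14.1 ± 0.0795 to 10.9 ± 0.380 FPKM, OVOL2 1.53-fold, HNF4A 1.31-fold and CDX2 3.81-fold, the last having passed the filter through the DMSO libraries alone. The mesenchymal markers VIM, FN1, CDH11, SPARC and CDH2 summed to at most 0.419 FPKM in a DMSO library and 0.764 FPKM in a YM155 library, and CDH2, N-cadherin, was listed at 0 in all 6 libraries.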

How the data were processed

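Per the labels' protocols, total RNA was purified on RNeasy columns and sequenced as stranded mRNA libraries. The authors deposited 1 table of FPKM per library. Genome build hg19 and the aligner TopHat2 2.1.1, with Bowtie2 2.3.5.1, come from the submitters' processing notes, which also name Cufflinks 2.2.1, Cuffdiff and SAMtools 1.2. The sources used here do not give their settings, the annotation or the use of strand.

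Members were matched by symbol (34 of 34). Genes at 1 FPKM or more in at least 3 of 6 libraries were tested as log2(FPKM + 1) with limma 3.58.1 in R 4.3.3 (eBayes with trend, two-sided, Benjamini-Hochberg adjustment over all 12035 tested genes, threshold 0.05), a scale that understates changes of scarce genes. Folds are ratios of mean FPKM. "Rose" and "fell" mean passing this test. The fit was tested on simulated data.

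Every member is described. Of the other junction genes the rule named up to 3 with the lowest p in each direction per family and the most abundant that did not pass, and of the regulators all tested. Some genes these rules name are not reported here, though counts over lists include them. Other names were chosen after their values were seen. Members and lists were chosen with earlier results of these data known, so nothing here is independent support for a pattern among them. Gene sets were not tested. Alternatives were pseudocounts of 0.1 and 0.5, no filter, a mean of 5 FPKM, 4 scalings, eBayes without trend, a replicate block, leaving out each library and a threshold of 0.01. Cyclic loess was added after seeing the data.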

Additional observations from a re-analysis of the deposited data

How the results depend on the processing

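With a replicate block the members counted 29 higher and 2 lower and all tested genes 5147 and 4861, changing no member's call. Same-numbered libraries did not deviate together (correlations of -0.15 to -0.07) and none correlated best with its own number. These values thus showed no pairing by number, but they cannot tell whether same-numbered cultures were handled together. Leaving out each library gave 29 to 30 members higher and 2 lower, 27 to 28 and 7 to 8 of the other junction genes, and 5084 to 5252 and 4768 to 4952 of all genes. The medians then ranged from 0.87 to 0.93 over all members, 1.55 to 1.66 for desmosome, 0.68 to 0.72 for adherens junction, 0.43 to 0.48 for claudin, 0.94 to 0.996 for other tight junction and 1.44 to 1.57 for polarity genes. A mean of at least 5 FPKM, which tests fewer genes, left 2922 genes lower, 1 member and 4 other junction genes, with medians of 1.09 over members and 0.69 over claudins. Without a filter 17 other junction genes were lower, and the medians were 0.81 over members and 1.26 for desmosome genes. Quantile scaling put 4 members and 11 other junction genes lower.

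Medians of members, desmosome, adherens, claudin, other tight junction and polarity genes were 0.65, 1.38, 0.45, 0.23, 0.72 and 1.26 with upper-quartile scaling. With a common sum they were 0.59, 1.31, 0.38, 0.16, 0.65 and 1.19, with quantile scaling 0.68, 1.34, 0.26, 0.38, 0.71 and 1.42, and with cyclic loess 0.81, 1.35, 0.35, 0.42, 0.74 and 1.46. Median-of-ratios scaling gave 0.93 over members, 0.74 adherens, 0.49 claudin and 1.55 polarity. A pseudocount of 0.1 gave 0.96 over members, 1.73 desmosome, 0.49 claudin and 1.56 polarity, and one of 0.5 gave 0.93 and 0.48 over members and claudins. The order of desmosome and claudin medians was the same in each of these settings.

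Direction turned for CTNND1 (-0.10 upper-quartile, -0.17 common sum, -0.29 quantile, -0.20 cyclic loess), CLDN3 (-0.12 quantile, -0.019 cyclic loess) and MARVELD3 (-0.020 common sum). CTNND1 was called lower in each of its settings and CLDN3 with quantile scaling. The cause was not tested. Depth limits PKP1, DSC3, CLDN2 and CLDN23 most.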
